A study of Mus musculus with 7 samples.

Results

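The interferon regulatory factors (IRFs) are transcription factors that share an N-terminal DNA-binding domain and recognise repeats of GAAA in the control regions of interferon and immune genes. The family members described here are Irf1, Irf2, Irf3, Irf4, Irf5, Irf7, Irf8 and Irf9. They were taken as the array probes whose gene name equals 1 of these symbols, which gave 9 probes for 8 genes out of 55681 probes in all. All 9 probes were matched to the same 8 symbols through their RefSeq accession.

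Family members play separate roles. Irf4 is induced through the T cell receptor in proportion to signal strength and pairs with BATF and JUN proteins, and Irf8, a factor of blood cells, takes part in effector differentiation of CD8 T cells. Irf3 and Irf7 are kept latent until sensors of nucleic acids activate kinases that phosphorylate them, Irf9 carries the type I interferon signal to its target genes, and Irf1 and Irf2 bind the same elements as activator and antagonist. Irf5 is best known from myeloid and B cells.

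Gene expression was measured by 1-colour microarray, 1 array per sample, in mouse CD8 T lymphocytes from lymph node. All samples were heterozygous for OT-1, a T cell receptor transgene specific for an ovalbumin peptide, and were Rag-/-, so that other antigen receptors are not rearranged. All were activated in culture for 24 h with this peptide, SIINFEKL, at 100 nM, and the labels give neither a sort nor the age of the mice. The 4 WT samples carried no further allele in the labels. The 3 Lck-/- samples lacked endogenous Lck, the kinase that phosphorylates the CD3 and zeta chains of the engaged receptor, and carried a knocked-in Lck that was removed through 7 days without dietary doxycycline. No promoter driving this Lck and no doxycycline feeding of WT mice is given in the labels. The knocked-in allele therefore differs with the genotype, diet may differ as well, and their effects cannot be told apart. The comparison asks how a T cell response that starts without Lck differs in its IRF transcripts.

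Values are log2 of the spot signal relative to the 75th percentile of its array, so that 0 is the 75th percentile. Differences are read between arrays for 1 probe. Signals of different probes are not compared as amounts of RNA, and a gene called bright below has a high signal on its probe. Between 46.57% and 61.06% of spots per array were well above background, no spot was saturated, and arrays correlated at 0.979 to 0.991 over genes, with groups not set apart. All 10 listed T cell markers were measured, among them Cd3d, the delta chain of CD3. The mean of Cd3d was 7.04 ± 0.21 (SD, n = 4) over WT arrays, and over Lck-/- arrays it was 7.10 ± 0.07 (SD, n = 3).

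The Lck probe went against the label on 2 arrays. In replicate order, the WT arrays read 7.44, 7.67, 7.36 and 6.04, and the Lck-/- arrays read 8.02, 6.21 and 6.17. The array labelled Lck-/- 1 was thus the highest of all and the array labelled WT 4 the lowest. Between the groups as labelled the difference was -0.32 (SE 0.55, limma adjusted p = 0.96), so the probe did not set the genotypes apart. Which part of the gene is deleted is not given in the labels, nor whether this probe also reads the knocked-in Lck. A probe outside the deleted part, or one that reads the knocked-in Lck, would not check the deletion. Whether the labels of these 2 arrays were exchanged was not tested. Directions below are between arrays as labelled, and values without these 2 arrays are given for each member and for the median of each list that is described.

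Promoter sequence is shown first, because motifs for the factors that switch IRF genes on can be read in it directly. RefSeq windows from 250 bases before to 50 bases after a start (build GRCm38.p6) were found for all 8 members, 11 windows in all. They were searched on both strands for the core of the interferon-stimulated response element (2 copies of GAAA with any 2 bases between them), the gamma-activated site bound by STAT factors (TTCNNNGAA), the AP-1 motif (TGANTCA) and the NF-kB motif. Irf8, Irf1 and Irf2 each had a window with matches, and the 250 upstream bases of those windows follow, plus strand, with matched bases in capitals. They lie at chr8:120736108-120736357, chr11:53769764-53770013 and chr8:46739495-46739744.
Irf8: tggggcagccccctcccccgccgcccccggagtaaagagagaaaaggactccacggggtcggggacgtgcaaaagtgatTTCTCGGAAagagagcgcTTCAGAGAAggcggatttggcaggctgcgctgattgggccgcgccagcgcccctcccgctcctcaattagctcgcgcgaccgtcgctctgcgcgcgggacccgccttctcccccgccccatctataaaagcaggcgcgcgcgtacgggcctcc
Irf1: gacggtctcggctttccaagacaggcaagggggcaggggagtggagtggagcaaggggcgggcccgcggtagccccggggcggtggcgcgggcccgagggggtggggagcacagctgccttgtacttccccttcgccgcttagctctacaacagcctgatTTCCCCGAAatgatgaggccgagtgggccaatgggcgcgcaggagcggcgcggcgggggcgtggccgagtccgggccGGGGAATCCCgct
Irf2: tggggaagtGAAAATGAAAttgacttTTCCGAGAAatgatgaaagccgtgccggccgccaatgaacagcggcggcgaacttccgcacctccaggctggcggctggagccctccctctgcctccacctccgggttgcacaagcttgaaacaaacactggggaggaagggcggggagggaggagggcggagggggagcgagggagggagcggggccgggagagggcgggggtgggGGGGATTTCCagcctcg

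The Irf8 window held 2 gamma-activated sites, TTCTCGGAA starting at base -171 and TTCAGAGAA starting at base -153, counted from the transcription start. The Irf1 window held 1, TTCCCCGAA at -90, and an NF-kB match, GGGGAATCCC, at -13 that reads on both strands. Irf2 held the only response element match of the family, GAAAATGAAA at -241, besides the gamma-activated site TTCCGAGAA at -224 and the NF-kB match GGGGATTTCC at -17. No 2 of these matches overlapped. Gamma-activated sites were therefore present in 3 of the 11 windows, against 8.3% of 32851 windows of this length over all genes. The other shares over all genes were 3.44% for the response element, 8.46% for NF-kB and 7.81% for AP-1, which no member window held. The searched letters do not occur in the windows of Irf3, Irf4, Irf5, Irf7 and Irf9, and a match is a description of sequence, not a shown binding site.

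**Figure D1:**
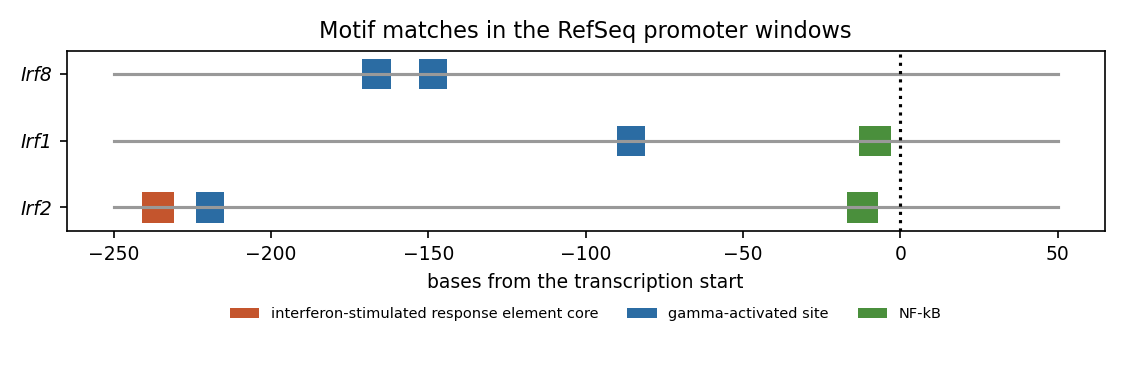
Motif matches (coloured blocks) in the promoter windows of Irf8, Irf1 and Irf2, by distance in bases from the transcription start (dotted line). Both matches of Irf8 are gamma-activated sites, at -171 and -153, and the NF-kB matches of Irf1 and Irf2 sit at -13 and -17.

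No IRF gene was called as different by genotype. With limma and Benjamini-Hochberg adjustment over 15116 genes, 0 of the 8 members were below an adjusted p of 0.05, and over all genes the share called was also 0%. The members' adjusted p ran from 0.613 to 0.956. At an unadjusted p under 0.05 there was 1 member, Irf8, where 7.14% of all genes lay below that limit (4.98% higher and 2.16% lower in Lck-/-). Irf8 was also the 1 member whose groups did not overlap, against 7.2% of all genes (5.13% with Lck-/- higher and 2.08% with Lck-/- lower). Differences were positive for 6 members and negative for 2, with a median of 0.17 that became -0.04 when arrays were centred on their medians. Over all genes the median was 0.04, or -0.16 with that centring, and 57.9% of differences were positive. The number of arrays limits these statements, since half-widths of the members' 95% intervals ran from 0.33 to 0.72 on the log2 scale.

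**Figure D2:**
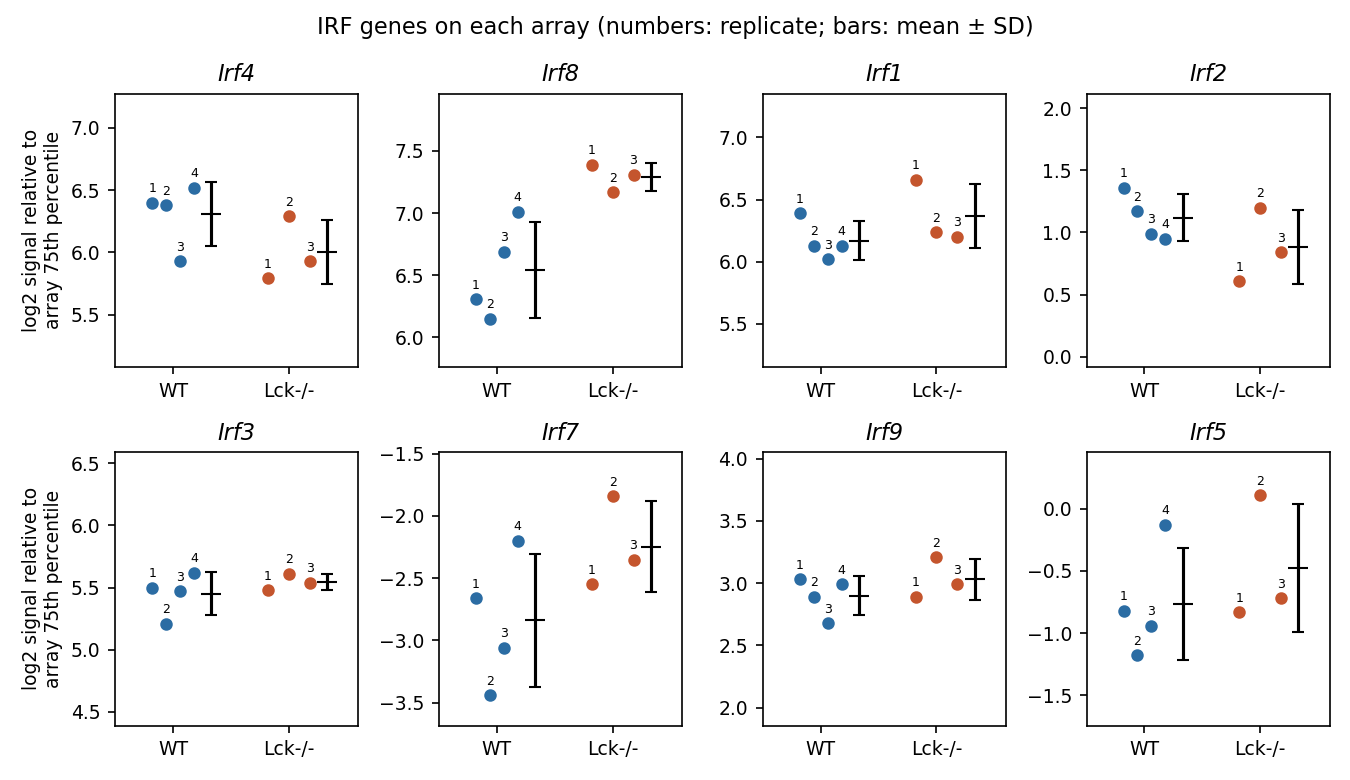
Log2 signal relative to the array's 75th percentile for each IRF gene, by group, with each point an array labelled by its replicate number and bars giving mean ± SD (4 WT, 3 Lck-/-). Every panel spans the same height, and Irf8 alone has all 3 Lck-/- arrays (7.17 to 7.39) above all WT arrays (6.15 to 7.01).

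Irf8, the effector factor, was the member with the lowest p, and its groups did not overlap. Its probe (A_52_P354823, mm9 chromosome 8, 123280324 to 123280383) read 6.31, 6.15, 6.69 and 7.01 on the arrays WT 1 to WT 4. It read 7.39, 7.17 and 7.31 on the arrays Lck-/- 1 to Lck-/- 3. The lowest Lck-/- array lay above the highest WT array, the 3 Lck-/- arrays lay close together, and the WT arrays spread wider. The WT mean was 6.54 ± 0.39 (SD, n = 4). The Lck-/- mean was 7.29 ± 0.11 (SD, n = 3), higher by 0.75 (SE 0.22, 95% interval 0.24 to 1.26), or 1.68-fold. Irf8 ranked 233 by p among all genes, and its limma adjusted p was 0.613.

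On 6 of the 7 arrays Irf8 was high where the Lck signal was low. The arrays WT 1, WT 2 and WT 3, with the Lck probe at 7.36 to 7.67, read 6.15 to 6.69 for Irf8, whereas WT 4, Lck-/- 2 and Lck-/- 3, with Lck at 6.04 to 6.21, read 7.01 to 7.31. The array Lck-/- 1 departed from this, with the highest signal of both genes. Were the labels of WT 4 and Lck-/- 1 exchanged, the Irf8 groups would overlap. Without both of these arrays the difference was 0.85 (SE 0.23, limma adjusted p = 0.205). Leaving out any 1 array gave 0.62 to 0.90, and relative to the median of all genes the difference was 0.70.

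**Figure D3:**
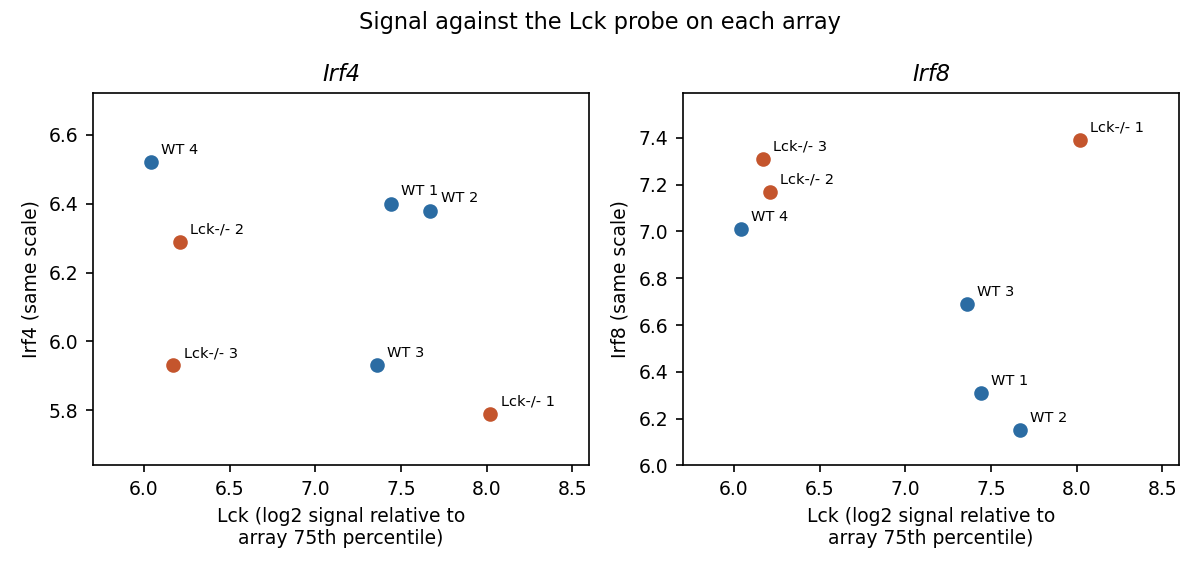
Signal of Irf4 (left) and Irf8 (right) against the Lck probe on each array, both as log2 relative to the array's 75th percentile, with WT arrays in blue and Lck-/- arrays in orange. Irf8 is at 7.01 or more on the 3 arrays with a low Lck signal and at 7.39 on Lck-/- 1, where Lck is highest, and the Irf4 values of the groups overlap.

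Irf4, the reader of receptor signal strength, had a lower mean in Lck-/- that did not pass the test, and its groups overlapped. Its probe (A_55_P2109445, mm9 chromosome 13, 30858532 to 30858591) read 6.40, 6.38, 5.93 and 6.52 on WT 1 to WT 4, and 5.79, 6.29 and 5.93 on Lck-/- 1 to Lck-/- 3. WT 3 lay level with Lck-/- 3, and Lck-/- 2 lay near WT 2, 1 array of each group in either case. The difference was -0.30 (SE 0.20, 95% interval -0.76 to 0.15, limma adjusted p = 0.808). Relative to the median of all genes it was -0.35. Without WT 4 and Lck-/- 1 the difference was -0.13 (SE 0.24). The array with the highest Lck signal, Lck-/- 1, had the lowest Irf4 signal, and the array with the lowest Lck signal, WT 4, the highest. Irf4 was at 5.93 or less on WT 3, Lck-/- 1 and Lck-/- 3, the arrays with the most spots well above background (54.3% to 61.06%) and the most non-uniform spots (144 to 1403). On the other 4 arrays it was at 6.29 or more, with 46.57% to 50.64% and 1 to 31 such spots. With array weights the Irf4 difference was -0.38 (SE 0.17). Those weights were lowest on WT 3 (0.49) and Lck-/- 1 (0.64) but highest on Lck-/- 3 (2.2), so they do not follow this grouping of arrays. The part of array quality in the Irf4 difference was not tested.

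Irf1 and Irf2 bind the same elements with opposed effect. The main Irf1 probe (A_55_P2000062, mm9 chromosome 11, 53590746 to 53590805) read 6.39, 6.13, 6.02 and 6.13 in WT and 6.66, 6.24 and 6.20 in Lck-/-, in replicate order. Only Lck-/- 1 stood above the WT range, and the difference was 0.20 (SE 0.17, limma adjusted p = 0.862), 0 with median centring, and 0.04 without WT 4 and Lck-/- 1. The Irf1 probe for transcript variant 3 (A_55_P2000067, mm9 chromosome 11, 53591817 to 53591876) was dim, well above background on 3 WT and 2 Lck-/- arrays. In a fit over all 29238 passing probes it differed by -0.33 (SE 0.29), so that the Irf1 probes differed in sign, and neither passed.

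The Irf2 probe (A_51_P316523, mm9 chromosome 8, 47932486 to 47932545) read 1.36, 1.17, 0.99 and 0.95 in WT and 0.61, 1.20 and 0.84 in Lck-/-. Lck-/- 1 and Lck-/- 3 lay below all WT arrays, while Lck-/- 2 lay above WT 2. The difference was -0.23 (SE 0.19, limma adjusted p = 0.85), and -0.15 (SE 0.22) without WT 4 and Lck-/- 1. On the array Lck-/- 1, Irf1 had its highest value and Irf2 its lowest of all 7 arrays. On WT 1, by contrast, Irf2 had its highest value of all (1.36) and Irf1 its highest among WT arrays (6.39).

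Irf3, Irf7 and Irf9 belong to the antiviral branch. Irf3 (A_55_P2083939, mm9 chromosome 7, 52257700 to 52257759) was the steadiest member, at 5.50, 5.21, 5.47 and 5.62 in WT and 5.48, 5.61 and 5.54 in Lck-/-. All Lck-/- arrays fell inside the WT range. The difference was 0.09 (SE 0.14, 95% interval -0.24 to 0.43, limma adjusted p = 0.956), -0.11 with median centring, and 0.18 without WT 4 and Lck-/- 1. Its pooled spread within groups was 0.14, under the lower quartile of 0.18 over 14418 genes.

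The Irf7 probe is printed because its 60 bases come from an interval of 351 bases on mm9 (chr7:148450664-148451014, minus strand), so that it bridges a gap in the genome match.
Irf7 probe A_51_P421876: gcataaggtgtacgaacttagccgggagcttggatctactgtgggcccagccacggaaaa
This probe read -2.66, -3.44, -3.06 and -2.20 in WT and -2.55, -1.84 and -2.35 in Lck-/-. Every Lck-/- array lay above WT 1, WT 2 and WT 3, and WT 4 lay above Lck-/- 1 and Lck-/- 3. The mean was -2.84 ± 0.53 (SD, n = 4) in WT. In Lck-/- it was -2.25 ± 0.37 (SD, n = 3), and the difference was 0.59 (SE 0.31, 95% interval -0.13 to 1.31, limma adjusted p = 0.755), or 1.51-fold. The probe was well above background on all 7 arrays but dim, with a processed intensity of 32.47 on WT 2 and 125.3 on Lck-/- 2. The Irf7 value moved with the processing and the arrays, to 0.23 in the authors' deposited table, 0.26 with normexp background correction, 0.39 without WT 2 or without Lck-/- 2, and 0.96 (SE 0.30, limma adjusted p = 0.285) without WT 4 and Lck-/- 1.

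Irf9 (A_55_P2114938, mm9 chromosome 14, 56228806 to 56228865) read 3.03, 2.89, 2.68 and 2.99 in WT and 2.89, 3.21 and 2.99 in Lck-/-. Only Lck-/- 2 stood above the WT range. The difference was 0.13 (SE 0.15, limma adjusted p = 0.916), -0.07 with median centring, and 0.24 (SE 0.20) without WT 4 and Lck-/- 1. Irf5 (A_51_P346668, mm9 chromosome 6, 29486901 to 29486960) read -0.82, -1.18, -0.94 and -0.13 in WT and -0.83, 0.11 and -0.72 in Lck-/-. Its high values came from WT 4 and Lck-/- 2, 1 array of each group. The difference was 0.29 (SE 0.31, limma adjusted p = 0.906), was -0.01 without Lck-/- 2, and was 0.67 (SE 0.29) without WT 4 and Lck-/- 1.

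**Figure D4:**
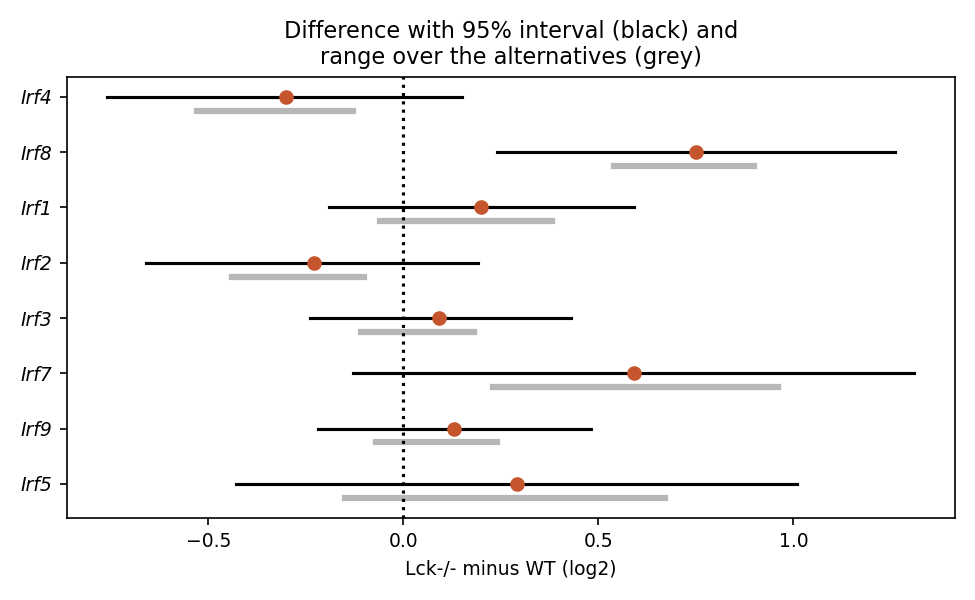
Difference between Lck-/- and WT for each IRF gene on the log2 scale, with the limma 95% interval in black and the lowest to highest value over 22 alternative settings in grey. The interval of Irf8 (0.24 to 1.26) alone lies clear of 0, and the grey ranges of Irf4, Irf2, Irf7 and Irf8 stay on 1 side of 0.

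Irf5 and Irf7 had their highest values on the same arrays. Relative to the WT mean, Irf7 was 0.64 on WT 4 and 1.00 on Lck-/- 2, and Irf5 was 0.63 and 0.88 there. WT 2 was the lowest array for Irf7 (-0.60), Irf5 (-0.41), Irf8 (-0.40) and Irf3 (-0.24), and WT 4 was the highest WT array for all 4. NK cell markers were also highest on WT 4 and Lck-/- 2, with a list mean of 1.85 and 2.28 over the 8 markers with a value on every array, against -1.03 to 0.68 on the other arrays. Irf8 shared its high WT 4 value (0.47) with them, while its highest array was Lck-/- 1 (0.85), where the NK mean was 0.55.

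**Figure D5:**
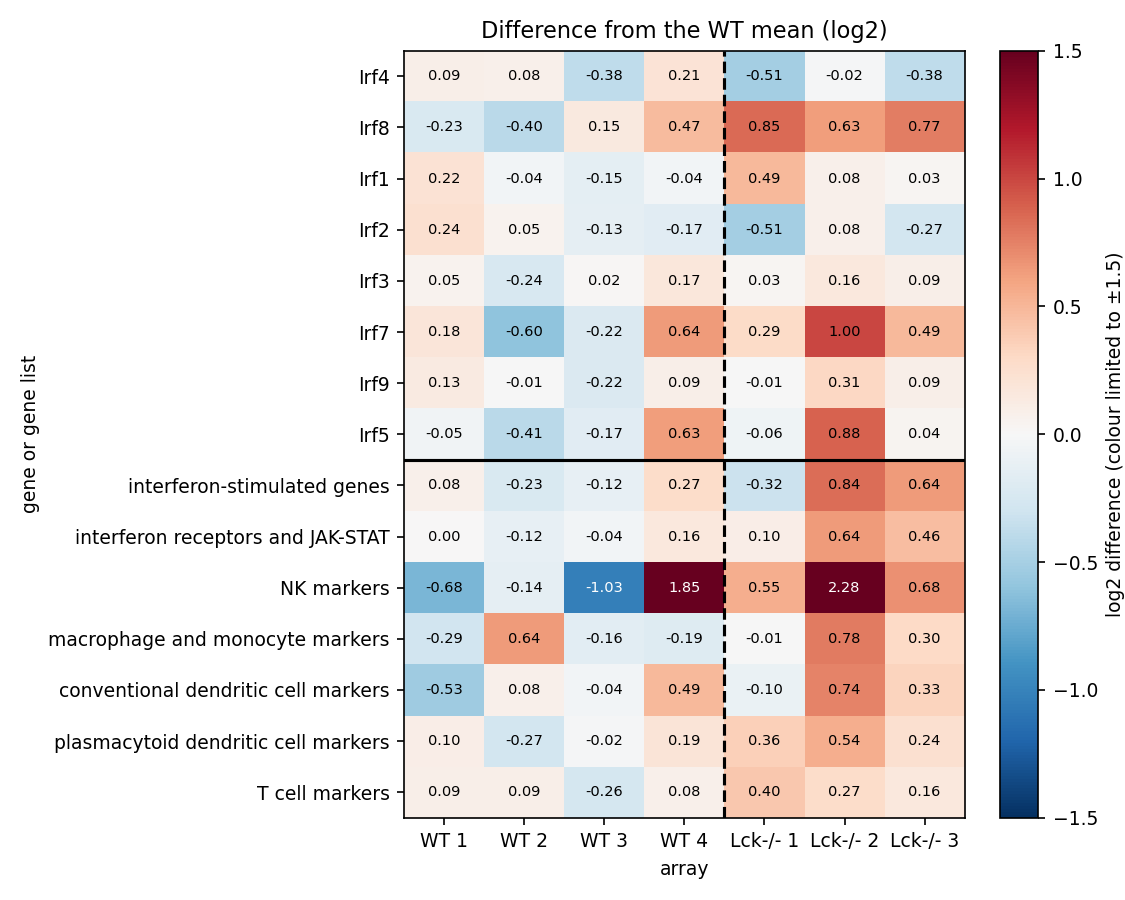
Difference from the WT mean (log2) on each array for the 8 IRF genes (above the line) and the mean of gene lists (below it), red for higher and blue for lower, with WT arrays left of the dashed line. List means are over genes with a value on every array. Irf7, Irf5, Irf3 and the NK and conventional dendritic cell markers are highest on WT 4 and Lck-/- 2. Irf8, Irf7, Irf1 and Irf3 are above the WT mean on all 3 Lck-/- arrays. So are the NK, plasmacytoid dendritic and T cell markers and the interferon receptor and JAK-STAT genes.

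Other cells that use IRF genes were looked for through their markers, with linear signals summed over the markers that had a value on every array. Each such sum rests mainly on the brightest probes in it. All 10 NK markers were tested and had positive differences, where 57.9% of all genes did, with 0 past the threshold. Only 5 of the 10 were well above background on all 7 arrays, and their median difference was 0.95. Apart from Cd244a, Fcer1g and Tyrobp, the NK probes were dim, with WT means from -4.05 to -2.61. Summed over the 8 NK markers with a value on every array, the signal ran from 0.908 to 5.16 in WT and from 2.1 to 7.84 in Lck-/-. The median NK difference was 1.00. It was 0.33 in the authors' deposited table, 0.37 with normexp, 0.59 to 1.47 when single arrays were left out, and 1.78 without WT 4 and Lck-/- 1. Cd244a, an NK receptor also found on CD8 T cells, differed by 0.26 (SE 0.26), and the signalling adaptors Fcer1g and Tyrobp by 0.20 (SE 0.54, 3 WT values) and 0.95 (SE 0.62).

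Of 12 macrophage and monocyte markers 8 were tested, 7 with positive differences and a median of 0.30, or 0.45 without WT 4 and Lck-/- 1. Over the 6 markers with every value the sum was 8.46 to 15.3 in WT and 11.6 to 13.7 in Lck-/-. It came mostly from Itgam (WT mean 3.31), with the next of these markers, Mpeg1, at -0.89. The defining marker Fcgr1 was not well above background on any array. The brightest of the list were Itgam, an integrin chain, Csf1r, the receptor of a macrophage growth factor, and Cd68, a lysosomal protein, with differences of 0.21 (SE 0.24), 0.13 (SE 0.63, 3 WT values) and 0.51 (SE 0.15, 3 WT values).

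Dendritic cells, whose subsets depend on Irf8 or Irf4, were looked for in the same way. Of 12 conventional dendritic cell markers 9 were tested, with a median of 0.39, or 0.95 without WT 4 and Lck-/- 1, and sums of 19.8 to 27.4 in WT and 23.2 to 29 in Lck-/-. Xcr1, Clec9a and Cd209a were not well above background on any array. The factor Batf3 differed by -0.18 (SE 0.50), the class II chain H2-Ab1 by 0.49 (SE 0.35) and the invariant chain Cd74 by 0.03 (SE 0.30). Batf3 was the brightest of the list (WT mean 3.13) and is also listed among the IRF partner factors below. For 7 plasmacytoid dendritic cell markers the sum was 200 to 240 in WT and 217 to 316 in Lck-/-, highest on Lck-/- 1. This sum was mostly Siglech and Bst2 (WT means 7.35 and 5.46), and Bst2 is also a listed interferon-stimulated gene. Tcf4, Ccr9 and Runx2 were dim, with WT means of -2.02, -3.21 and -4.58. Among the plasmacytoid markers 5 of 8 differences were positive, with a median of 0.26, or 0.16 without WT 4 and Lck-/- 1. The brightest, the lectin Siglech, differed by 0.22 (SE 0.21), and Pacsin1 by 1.13 (SE 0.64, 3 WT values), reading 7.55 on Lck-/- 1.

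Of 10 B cell markers 5 were tested, with a median of 0.48, or 0.60 without WT 4 and Lck-/- 1, and Ms4a1 and Ebf1 were not well above background on any array. The sum over 4 of them was 1.23 to 1.96 in WT and 1.91 to 2.43 in Lck-/-. The receptor chains Cd79b and Cd79a and the lectin Cd22 differed by 0.53 (SE 0.24), 0.48 (SE 0.30, 3 WT values) and 0.34 (SE 0.17). The sum over 9 T cell markers was 560 to 656 in WT and 695 to 935 in Lck-/-, and the median of all 10 was 0.29, or 0.21 without WT 4 and Lck-/- 1. Among them Thy1, a surface protein of T cells, differed by 0.58 (SE 0.17), Cd3d by 0.06 (SE 0.15) and Cd3e by 0.21 (SE 0.39, 3 WT values). Thy1 was the brightest of the list and weighs most in the sum, at 7.64 to 7.70 in WT and 8.64, 8.11 and 8.02 in Lck-/-. In such bulk samples fewer cells of a type and less RNA per cell cannot be told apart.

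With the mean of the 8 NK markers as a covariate Irf8 differed by 0.62 (SE 0.26), Irf7 by 0.24 (SE 0.28), Irf5 by -0.13 (SE 0.22) and Irf4 by -0.51 (SE 0.19). With the mean of 22 macrophage and dendritic cell markers as a covariate the values were 0.71 (SE 0.30) for Irf8, 0.32 (SE 0.39) for Irf7, -0.15 (SE 0.33) for Irf5 and -0.53 (SE 0.23) for Irf4. Without a covariate they were 0.75 (SE 0.22) for Irf8, 0.59 (SE 0.31) for Irf7, 0.29 (SE 0.31) for Irf5 and -0.30 (SE 0.20) for Irf4. With either covariate the differences of Irf8 and Irf7 moved toward 0 and that of Irf4 away from 0. The Irf5 difference changed sign. No member passed in either fit.

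Factors that work with the IRFs gave no call. Of 20 listed partner factors 19 were tested, 0 were called, and 11 differences were positive, with a median of 0.11 beside 0.04 over all genes, -0.10 with median centring, -0.03 in the authors' deposited table and 0.12 without WT 4 and Lck-/- 1. Jund, an AP-1 factor, differed by 0.16 (SE 0.19), Tbx21, which encodes T-bet, by 0.19 (SE 0.21) and Irf2bp2, a corepressor that binds Irf2, by 0.00 (SE 0.17). Outside the rule for naming genes, and chosen after their values were seen, are Batf and Stat2. Batf, which binds DNA together with Irf4, differed by -0.27 (SE 0.16), near the value of Irf4 itself. Stat2, which binds Irf9, differed by 0.26 (SE 0.24).

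Sensors and kinases upstream of Irf3 and Irf7 gave 0 calls among 20 tested genes of 22 listed, with 15 positive differences and a median of 0.09, which was -0.11 with median centring and 0.23 without WT 4 and Lck-/- 1. Trim25, a ubiquitin ligase that activates the sensor RIG-I, differed by -0.18 (SE 0.15), the adaptor Sting1 by 0.00 (SE 0.21) and the kinase Chuk by -0.05 (SE 0.17). Tlr3, a sensor of double-stranded RNA, was not well above background on any array. Interferon receptors and JAK-STAT genes gave 0 calls among 16 tested of 17, with 14 positive differences and a median of 0.44, or 0.50 without WT 4 and Lck-/- 1. The groups of 5 of these genes did not overlap, 4 with Lck-/- higher and 1 with Lck-/- lower, against 5.13% and 2.08% of all genes. Among them, chosen after their values were seen, the interferon-gamma receptor chain Ifngr2 differed by 0.58 (SE 0.19), the inhibitor Socs3 by 0.82 (SE 0.21) and the kinase Jak2 by -0.34 (SE 0.15), with limma adjusted p of 0.613 to 0.693. The phosphatase Ptpn6 differed by 0.02 (SE 0.16), the cytokine Ifng by 0.56 (SE 0.59) and the factor Stat3 by 0.30 (SE 0.18). The interferon gene Ifnb1, a target of Irf3 and Irf7, was not well above background on any array.

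Targets of the family gave no call either. Among the 32 interferon-stimulated genes, 28 differences were positive, against 57.9% of all genes, and the median was 0.31. This median was 0.11 with median centring, 0.17 without Lck-/- 2, 0.55 without Lck-/- 1 and 0.66 without WT 4 and Lck-/- 1. With the NK covariate it was 0.08, and with the macrophage and dendritic cell covariate 0.04. The latter covariate includes Bst2, itself 1 of the 32 genes, so that value is in part the list adjusted for itself. The membrane protein Bst2, which holds back budding virus, differed by 0.31 (SE 0.17), the secreted Lgals3bp by 0.33 (SE 0.24) and Ifi35 by 0.18 (SE 0.19). By array the list mean was -0.32 on Lck-/- 1, and 0.84 and 0.64 on Lck-/- 2 and Lck-/- 3, with WT arrays from -0.23 to 0.27. Irf7, itself an interferon-induced gene, was 0.29, 1.00 and 0.49 on those 3 Lck-/- arrays, so the array Lck-/- 1 was above the WT mean for Irf7 and below it for the list.

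Interferon-gamma and antigen presentation genes, targets of Irf1 and Irf8, gave 19 positive differences among 24, a median of 0.17 and 0 calls. The median was -0.03 with median centring, 0.19 without WT 4 and Lck-/- 1, 0.12 with the NK covariate and 0.14 with the macrophage and dendritic cell covariate. The groups of 6 of the 24 genes did not overlap, 5 higher and 1 lower in Lck-/-, against 5.13% and 2.08% of all genes. The proteasome activator chains Psme2 and Psme1 differed by 0.12 (SE 0.13) and 0.28 (SE 0.17). B2m, the light chain of class I molecules, differed by 0.30 (SE 0.14), and its Lck-/- arrays all lay above the WT arrays. By array the mean of 23 genes with every value was 0.13, 0.29 and 0.19 in Lck-/-, and from -0.15 to 0.15 in WT.

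Genes linked to Irf4 in CD8 T cells gave 13 positive differences among 20, a median of 0.16 and 0 calls. This count and median disregard whether Irf4 raises or lowers a gene, so they do not measure its output. The median was -0.04 with median centring and 0.14 without WT 4 and Lck-/- 1. The groups of 4 genes did not overlap, against 7.2% of all genes. They are named after their values were seen: Eomes, Gzmb and Prdm1, higher by 1.93 (SE 0.36), 1.86 (SE 0.55) and 1.22 (SE 0.36) without passing the test, and Il2ra, described below. Eomes and Prdm1 encode factors of CD8 T cell differentiation and Gzmb a protease of lytic granules. The glycolytic enzyme genes Aldoa, Ldha and Pkm differed by 0.19 (SE 0.15), -0.02 (SE 0.16) and 0.13 (SE 0.17). Among 17 other readers of receptor strength 11 had negative differences, with a median of -0.24 and 0 calls. The median was -0.45 with median centring, -0.06 without Lck-/- 1, -0.11 without WT 2 and -0.09 without WT 4 and Lck-/- 1. The groups of 4 genes did not overlap, all lower in Lck-/-, against 2.08% of all genes, and 4 were lower at an unadjusted p under 0.05, against 2.16% of all genes. These 4 non-overlapping genes, named after their values were seen, were Il2ra, the surface glycoprotein Cd200 (-1.78, SE 0.28), the phosphatase Dusp4 (-1.37, SE 0.26) and the inhibitory receptor Pdcd1 (-0.98, SE 0.30). Cd5, an inhibitory receptor, differed by -0.41 (SE 0.41), the interleukin 2 receptor chain Il2ra by -0.33 (SE 0.17) and the immediate early factor Nr4a1 by 0.04 (SE 0.18). The Il2ra groups did not overlap, whereas those of Irf4, Cd5 and Nr4a1 did.

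Genes whose pattern over the 7 arrays was most like that of Irf4 or Irf8 were taken from 10991 genes that were well above background with a value on every array, leaving out the IRF genes and genes named only by a clone, locus or model number. For Irf4 they were Ints7, Abitram, Itgb1, Purb and Chka, with Pearson's r from 0.985 to 0.991, given as a description over 7 arrays. Itgb1, the integrin beta 1 chain, was 2.37, 2.38, 1.86 and 2.47 in WT and 1.71, 2.19 and 1.96 in Lck-/-. Its low value on WT 3, where Irf4 was also low, is a product of its choice for following Irf4. For Irf8 they were Nufip1, Amz1, Prdm9, Basp1 and Zmat1, with r from 0.958 to 0.986. Since they were chosen for following Irf8, their higher Lck-/- values are a product of that choice, with differences from 0.22 for Zmat1 to 0.84 for Prdm9, and none passed the threshold (limma adjusted p from 0.613 to 0.802).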

How the data were processed

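Total RNA from 7 samples (50 ng, Cy3 label, per the labels' protocols) was hybridised to 1 array each. Per the file headers, the deposited spot intensity came from Agilent Feature Extraction 10.7.3.1, with spatial and multiplicative detrending within arrays, surrogate values for dim spots and no scaling between arrays (75th percentiles 353.6 to 615.4). The authors' deposited table of log2 values, with column medians of 6.57 to 6.61, served as an alternative. Its between-array normalization was not given in the sources used here, and limma is named without a role in the submitters' processing notes. All arrays were on 1 slide with 1 scan time.

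Processed intensities were divided by the array's 75th percentile and log2-transformed, flagged spots were left out and spots of a probe averaged. Probes well above background on at least 3 arrays entered, and the probe of highest mean stood for its gene, which left 15116 genes. RefSeq tables (GRCm38.p6) gave names and promoters. Of 55681 probes, 21741 named only by an ID were left out. Groups were compared with limma 3.58.1 in R 4.3.3, two-sided, Benjamini-Hochberg threshold 0.05. The procedure was also run on simulated arrays with independent noise and shifts larger than any member difference of the main fit. That run does not show how well differences of the members' size are found.

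The members, lists and alternatives were chosen with earlier results of these data known. Names of genes followed a rule: members, Lck, the 3 brightest tested genes of each list, and 5 genes most like Irf4 and Irf8, other genes being named as chosen after their values were seen. The series states biological replicates. Alternatives were 2 other scalings, normexp with an offset of 50, the deposited table, 2 other filters, other probe summaries, replicate numbers as blocks, array weights, a robust variance trend, left-out arrays and 2 marker covariates. Sums, list means and covariates used only genes with a value on every array. Some genes of the lists are not reported here by name.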

Additional observations from a re-analysis of the deposited data

Results flagged for a closer look

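Among the 4 WT arrays, WT 3 stood apart from the rest in the mean of the T cell markers, at -0.26 relative to the WT mean, with a gap to the nearest array of 0.971 of the whole WT range. WT 2 stood apart in the mean of the macrophage and monocyte markers, at 0.64, with a gap of 0.86 of that range. Both gaps passed Dixon's critical value for 4 samples, which chance alone passes in about 1 of 20 groups. In all 23 WT groups of values were examined, and no IRF probe was among those that passed.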

How the results depend on the processing

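No member was called in any of 22 alternatives, and Irf8, Irf7, Irf4 and Irf2 kept their sign in all of them, with ranges of 0.54 to 0.90, 0.23 to 0.96, -0.53 to -0.13 and -0.44 to -0.10. Centring on the median, which moved the median of all differences from 0.04 to -0.16, turned Irf1 (0), Irf3 (-0.11) and Irf9 (-0.07). Relative to the median of all genes, Irf1, Irf3 and Irf9 were 0.16, 0.05 and 0.09 both with and without that centring. Averaging probes turned Irf1 (-0.06), through its dim probe. Irf5 ranged from -0.01 to 0.50 when single arrays were left out and turned without Lck-/- 2, with the NK covariate (-0.13) and with the macrophage and dendritic cell covariate (-0.15). The Irf7 value was 0.26 with normexp and 0.23 with the deposited table. The cause of the Irf5 turns was not tested.

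Over all genes, the count of calls was 1 with array weights and 57 without both WT 4 and Lck-/- 1. Leaving out single arrays gave 0 to 2 calls, the 2 without WT 1. With the title number or the number in the file names as a replicate block it was 1 each, and Irf8 differed by 0.90 and 0.62. Same-numbered arrays deviated together at 0.10, 0.06 and -0.03 by title, and at 0.10, -0.42 and 0.16 by file name, so neither number was treated as pairing the samples, and under neither did every array correlate best with its own number. Dim probes such as Irf7 are the least precise.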
